A study of Mus musculus with 22 samples.

Results

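The genes described here are the 10 members of 3 families of postsynaptic scaffold: Dlg1, Dlg2, Dlg3 and Dlg4, Shank1, Shank2 and Shank3, and Homer1, Homer2 and Homer3. They were chosen by name, and all 10 were found among the 20565 genes of both deposited count tables and passed the filter on low counts in both sexes. The values come from bulk RNA sequencing of brain tissue from 22 mice that all carried floxed Smc3 and all received tamoxifen by oral gavage. SMC3 is a core subunit of cohesin, the ring that holds and folds chromatin. The label cKO stands for mice that also carry Camk2a-cre/ERT2, a recombinase that needs tamoxifen and is driven by the Camk2a promoter of forebrain excitatory neurons, and WT stands for mice without it. There were 5 WT and 6 cKO males and 5 WT and 6 cKO females, 8 weeks of age and 6 weeks after tamoxifen per the labels, and each library is identified below by its animal's number.

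At excitatory synapses these proteins stack in layers beneath the membrane. Dlg proteins hold glutamate receptors, adhesion proteins and channels through their PDZ domains, SAPAP proteins link Dlg to Shank, and Shank binds Homer, whose other end reaches group I metabotropic glutamate receptors and inositol trisphosphate receptors of the internal calcium store. Neurons also make a short, activity-induced form of Homer1 that lacks the coiled coil and uncouples these links, and the deposited counts add up all forms of each gene.

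Some facts of the whole set of libraries bear on every value below. Library totals were 12771354 to 16896239 counts. The labels disagree on the tissue, with hypothalamus in the titles and prefrontal cortex in the tissue field. All titles also read control, those of WT and cKO animals alike, so this word does not separate the groups. Of 7 measured hypothalamus markers 5 averaged under 1 CPM (counts scaled to the TMM-adjusted library total) in each group. The sum of the 7 was highest in male cKO animal 8 (67.95 CPM) and male WT animal 6 (55.4 CPM), lay between 18.4 and 21.2 CPM in male WT animal 3 and male cKO animals 9 and 14, and was 4.28 to 12.3 CPM in the other libraries. Avp reached at most 0.389 CPM in any female cKO library, and the excitatory neuron marker Slc17a7 averaged 1381 CPM in male WT. The total count of Smc3 went against the labels, being higher in the libraries labelled cKO in both sexes (log2 fold change 0.79 ± 0.10 SE in males, adjusted p = 0.00541, and 0.81 ± 0.07 SE in females, adjusted p = 9.174e-05, edgeR's quasi-likelihood test). A count over the whole gene does not separate exons inside and outside the deleted stretch, so it does not check the deletion, and each direction below is between libraries as labelled. Because these are bulk samples, fewer cells of a type and less RNA per cell cannot be told apart.

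Of the 10 scaffold genes, Shank1 was the only member that passed the test, and it did so in the average of both sexes, where it fell by 0.34 ± 0.09 SE on the log2 scale in the libraries labelled cKO. In males alone and in females alone, 0 of 10 members passed a Benjamini-Hochberg adjusted p of 0.05 in edgeR's quasi-likelihood test, and DESeq2 called 0 in males and 1 in females, Homer2. Over all genes tested, 0.584% passed in males, 3.37% in females and 7.13% in the average. By direction, 0.503% fell and 0.0808% rose in males, 2.75% fell and 0.62% rose in females, and 4.67% fell and 2.46% rose in the average. The members' estimates lay below 0 in 9 of 10 genes in males, 9 of 10 in females and 8 of 10 in the average, with medians of -0.10, -0.07 and -0.09 on the log2 scale. Over all genes, 47.9%, 47.1% and 48.1% of estimates lay below 0, and the medians were 0.01, 0.01 and 0.01.

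At an unadjusted p under 0.05, the members with lower estimates were Shank1 and Shank3 in males (background 5.55% of all genes), Dlg4, Shank1 and Homer2 in females (9.14%) and Dlg4, Shank1 and Shank3 in the average (11.2%). No member separated the groups completely in either sex. Of all genes, 1.25% in males and 2.4% in females had each library labelled cKO below each WT library.

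**Figure D1:**
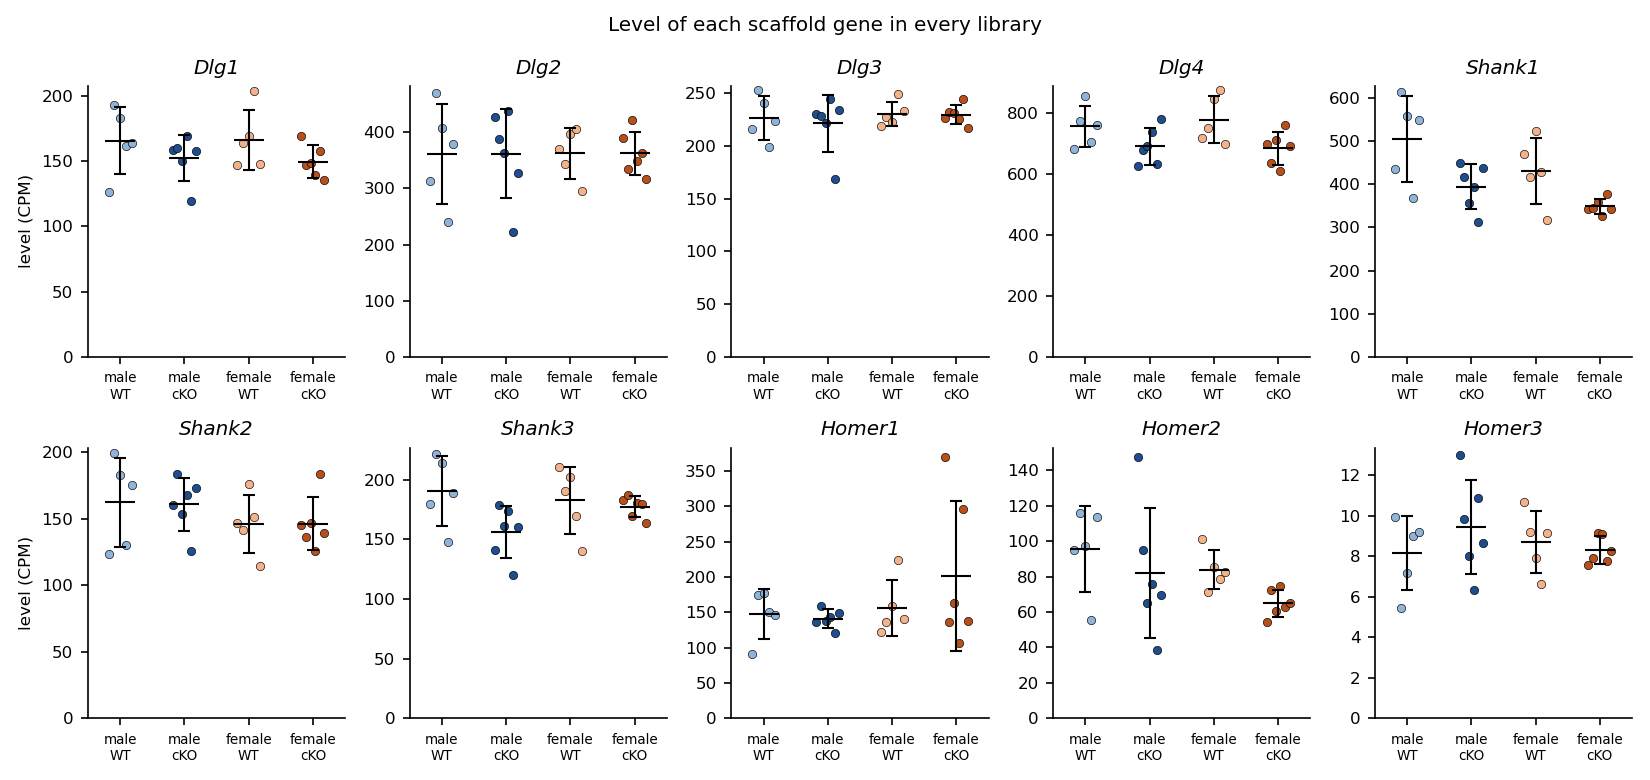
Level of each scaffold gene (CPM, linear axes from 0) in every library of the 4 groups; points are libraries, bars the mean and SD of 5 WT or 6 cKO libraries. The groups overlap for every gene; in females 4 of 5 WT libraries lie above all Shank1 values of cKO (326 to 377 CPM), and Homer1 shows 2 female cKO libraries at 297 and 370 CPM.

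Levels between genes are compared per kilobase of exon, using exon lengths of the GENCODE annotation of GRCm38. Each gene has a single length that covers its annotated transcripts, whether or not they are expressed here, and the counts were made on GRCm39. The order of genes therefore depends on the annotation, and the lengths of the expressed forms were not measured. Fold changes of a gene between groups do not use its length. In male WT, Dlg4 was highest at 56.9 ± 5.06 CPM per kilobase (SD, n = 5), followed by Shank1 at 48.0 ± 9.47 and Dlg3 at 38.8 ± 3.59. Dlg2 at 22.2 ± 5.44, Shank3 at 20.7 ± 3.22, Dlg1 at 15.4 ± 2.40, Shank2 at 15.1 ± 3.10 and Homer1 at 12.4 ± 2.94 CPM per kilobase formed a middle range. Homer2 at 7.57 ± 1.93 and Homer3 at 2.37 ± 0.530 CPM per kilobase were lowest. Between neighbours in this order, the mean less 1 SD of the higher gene exceeded the mean plus 1 SD of the lower gene only from Dlg3 to Dlg2 and from Homer2 to Homer3.

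In female WT the order was the same, and the steps from Dlg4 (58.6 ± 5.88 CPM per kilobase) to Shank1 (41.0 ± 7.28) and from Homer1 to Homer2 also exceeded the spread. In both groups labelled cKO, Dlg3 stood above Shank1. In female cKO this step, from 39.3 ± 1.54 to 33.2 ± 1.64 CPM per kilobase (SD, n = 6), exceeded the spread, whereas in male cKO the means were 37.9 ± 4.59 and 37.5 ± 4.93.

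A promoter window each of Homer1 and Homer2 is shown because of their spread within single groups and because the windows differ in sequence. The highest coefficients of variation among the 10 members were 52.6% for Homer1 in female cKO and 45.0% for Homer2 in male cKO. The spread was not wide in every group, with Homer1 at 9.44% in male cKO and Homer2 at 13.3% in female WT. RefSeq windows of 300 bases, from 250 before to 50 after a transcription start in build GRCm38.p6, were matched by symbol for 8 of 10 members (18 windows), all but Shank1 and Shank2. The first sequence lies at chr13:93303507-93303806 on the plus strand, and capitals mark TGACG, the core of the cyclic AMP response element bound by CREB. The second lies at chr7:81706876-81707175 on the minus strand, and capitals mark GGGCGG, the GC box bound by SP1, or its reverse complement.
Homer1: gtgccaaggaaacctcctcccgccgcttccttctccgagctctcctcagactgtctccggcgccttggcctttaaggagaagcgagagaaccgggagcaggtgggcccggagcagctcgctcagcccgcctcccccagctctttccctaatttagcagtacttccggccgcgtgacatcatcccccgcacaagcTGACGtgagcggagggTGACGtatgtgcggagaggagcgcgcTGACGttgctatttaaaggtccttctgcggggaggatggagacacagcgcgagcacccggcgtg
Homer2: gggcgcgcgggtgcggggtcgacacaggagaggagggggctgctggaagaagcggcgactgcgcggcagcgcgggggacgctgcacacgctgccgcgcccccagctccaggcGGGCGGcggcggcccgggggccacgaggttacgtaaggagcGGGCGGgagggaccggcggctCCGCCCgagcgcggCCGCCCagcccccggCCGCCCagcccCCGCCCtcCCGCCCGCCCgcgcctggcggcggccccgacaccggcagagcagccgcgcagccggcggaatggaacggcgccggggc

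The Homer1 window held TGACG 3 times, starting 56, 40 and 14 bases before the transcription start. On both strands, 20.8% of 32851 promoter windows held TGACG at least once and 1.03% at least 3 times. The same letters occurred once in a window of Dlg3 and once in a window of Dlg4, and in none of 15 other member windows, which include the other Homer1 start. The palindromic full element TGACGTCA, which contains TGACG on both strands, was in 1.79% of all windows and in no member window. TATAAA was in 13.6% of all windows and, among members, in a window of Dlg1, a window of Dlg2 and the Homer2 window not shown. The Homer2 window shown was 82.3% G and C, against a median of 52.7% over all windows, and held the GC box 8 times counting overlaps. Of all windows, 35.7% held it at least once and 0.262% at least 8 times. The other Homer2 window held it 0 times and was 52.3% G and C. The Homer3 window held it 5 times and the Shank3 window, 81.0% G and C, 4 times. Windows of Dlg1, Dlg3 and Dlg4 held it 1 or 2 times. A match describes letters in the window and is not evidence that a factor binds there.

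Dlg4, which encodes the most abundant scaffold of the excitatory postsynapse (PSD-95), had estimates below 0 in both sexes without a call. The male WT libraries read 682 (animal 1), 774 (3), 854 (4), 705 (5) and 758 CPM (6). The male cKO libraries ran from 625 over a median of 683 to 778 CPM. In females the WT libraries read 718 (animal 16), 750 (18), 844 (19), 874 (25) and 698 CPM (26), and cKO ran from 610 over a median of 694 to 758 CPM. In males 3 of 6 cKO libraries and in females 4 of 6 lay below the lowest WT library, and the groups overlapped in both sexes. The log2 fold change of Dlg4 was -0.14 ± 0.09 SE in males (adjusted p = 0.725), -0.19 ± 0.08 in females (adjusted p = 0.240) and -0.17 ± 0.06 in the average (95% interval -0.29 to -0.05, adjusted p = 0.0731, edgeR). Leaving out male cKO animal 14 or female WT animal 26 brought the adjusted p of the average to 0.0497 in each case.

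Dlg1, which also acts in receptor trafficking and at cell junctions, had the next lowest estimates of its family. Its level was 166 ± 25.7 CPM in male WT (n = 5), 153 ± 17.3 in male cKO (n = 6), 166 ± 22.99 in female WT (n = 5) and 150 ± 12.4 in female cKO (SD, n = 6). The lowest library of male cKO, at 119 CPM, was animal 13 and that of male WT, at 126 CPM, was animal 1, so the ranges overlapped. The fold change in the average of both sexes was -0.15 ± 0.07 SE on the log2 scale (95% interval -0.2989 to 0.0046, adjusted p = 0.267, edgeR).

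Dlg2, a close relative that clusters receptors and potassium channels, and Dlg3, which traffics NMDA receptors, had almost equal group means. Dlg2 averaged 362 CPM in each of the 4 groups to within 1 CPM, but its libraries ran from 223 (male cKO animal 13) to 470 CPM (male WT animal 3). Dlg3 averaged 226 ± 20.99 CPM in male WT, 222 ± 26.8 in male cKO, 231 ± 11.7 in female WT and 230 ± 9.01 in female cKO (SD). The 95% intervals of the average difference were -0.24 to 0.22 for Dlg2 and -0.14 to 0.08 for Dlg3 on the log2 scale.

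Shank1 encodes a Shank protein found mainly in brain. The male WT libraries read 436 (animal 1), 613 (3), 558 (4), 369 (5) and 549 CPM (6), and male cKO ran from 313 over a median of 406 to 449 CPM. The female WT libraries read 470 (animal 16), 416 (18), 525 (19), 429 (25) and 317 CPM (26), and female cKO ran from 326 over a median of 345 to 377 CPM. In males, WT animals 3, 4 and 6 lay above all cKO libraries while WT animals 1 and 5 lay within their range. In females 4 of 5 WT libraries lay above all 6 cKO libraries, and WT animal 26 lay below them all.

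The log2 fold change of Shank1 was -0.36 ± 0.14 SE in males (unadjusted p = 0.0219, adjusted p = 0.379) and -0.32 ± 0.11 in females (unadjusted p = 0.00999, adjusted p = 0.138). In the average of both sexes it was -0.34 ± 0.09 (95% interval -0.53 to -0.16, a 1.27-fold lower level, adjusted p = 0.0202, edgeR's quasi-likelihood test). The authors' deposited table gives -0.362 in males (adjusted p = 0.339) and -0.312 in females (adjusted p = 0.0918). The call rests on male WT animal 3, without which the average was -0.30 and the adjusted p 0.0565. Leaving out female WT animal 26 gave a call in females alone, at -0.42 and an adjusted p of 0.00887.

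Shank3, which binds SAPAP, Homer and actin regulators and is disrupted in Phelan-McDermid syndrome in humans, had a lower estimate in males than in females. The male WT libraries read 180 (animal 1), 222 (3), 214 (4), 148 (5) and 189 CPM (6), and male cKO ran from 120 over a median of 161 to 179 CPM. WT animal 5 lay within the range of the male cKO libraries and the other 4 WT libraries lay above them all. The female WT libraries read 211 (animal 16), 190 (18), 202 (19), 170 (25) and 140 CPM (26), and female cKO ran from 164 over a median of 180 to 187 CPM, inside the WT range. The log2 fold change of Shank3 was -0.30 ± 0.12 SE in males (adjusted p = 0.448) and -0.05 ± 0.10 in females (adjusted p = 0.839). The difference of these effects, female minus male, was 0.24 ± 0.16 SE (unadjusted p = 0.140, adjusted p = 1, edgeR). The estimates of 9 striatum markers were lower in cKO for 8 of 9 in males (median log2 fold change -0.19). In females 8 of 9 were higher (0.16), and edgeR called 0 in either sex. For the difference between sexes, 9 of 9 lay above 0 (median 0.31). The part of these markers in the Shank3 values was not tested.

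Shank2, which scaffolds group I metabotropic and NMDA receptors, averaged 162 ± 33.3 CPM in male WT, 161 ± 19.9 in male cKO, 146 ± 22.1 in female WT and 146 ± 19.7 in female cKO (SD). Its 95% interval for the average difference was -0.21 to 0.17 on the log2 scale. The make-up of the family is given as each member's share of the summed CPM per kilobase. In females Shank1 took 55.0% ± 1.15 (SD, n = 5) of the Shank signal in WT, ranging from 53.8% to 56.6%, and 50.3% ± 1.02 (n = 6) in cKO, ranging from 49.4% to 51.6%. In males it took 57.2% ± 1.18 in WT and 54.1% ± 2.67 in cKO, with the highest cKO library at 58.5%, inside the WT range.

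The share of Shank2 went the other way. In males it was 17.9% ± 1.24 in WT, with 19.1% as its highest library, and 21.5% ± 0.634 in cKO, with 20.4% as its lowest. In females it was 18.3% ± 0.961 in WT and 20.5% ± 1.66 in cKO, and the ranges overlapped between 18.8% and 19.2%. Shank3 took 24.9% ± 1.48 and 24.4% ± 2.12 in male WT and cKO, and 26.7% ± 1.59 and 29.2% ± 1.85 in female WT and cKO. Within the Dlg and Homer families, each member's share overlapped between WT and cKO in both sexes. In females, for example, Dlg4 took 42.25% to 44.86% of the Dlg signal in WT and 38.63% to 42.95% in cKO. The Shank shares are a description without a test or a background rate of separation, and they use the same counts as the fold changes. The size of each share also depends on the annotated exon lengths.

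**Figure D2:**
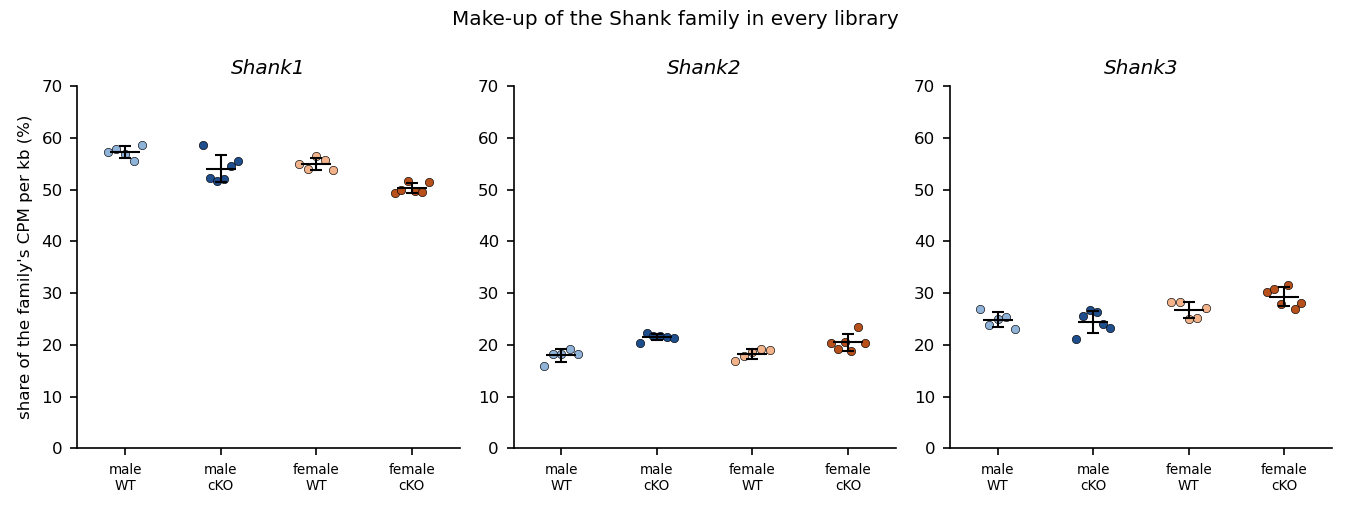
Share of each Shank gene in the family's summed level per kilobase of exon (%, axes from 0) in every library; points are libraries, bars the mean and SD. In females the Shank1 share of each cKO library (49.4% to 51.6%) lies below each WT library (53.8% to 56.6%), and in males the Shank2 share of each cKO library (20.4% or more) lies above each WT library (19.1% or less). The other Shank shares overlap between WT and cKO, and no background rate of such separation was computed.

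Homer2, a long coiled-coil Homer that links metabotropic receptors to calcium stores, had the lowest female estimate of the set. The female WT libraries read 101 (animal 16), 71.4 (18), 85.6 (19), 78.6 (25) and 82.4 CPM (26), and female cKO ran from 54.4 over a median of 64.0 to 74.6 CPM. WT animal 18 was the only WT library within the range of cKO, and 4 of 6 cKO libraries lay below it. The log2 fold change was -0.38 ± 0.10 SE in females (95% interval -0.60 to -0.16, adjusted p = 0.0676, edgeR). DESeq2 placed the same comparison past the threshold (-0.37, adjusted p = 0.0192), as does the authors' deposited table (-0.373, adjusted p = 0.0217).

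In males Homer2 varied far more between libraries. The male WT libraries read 94.9 (animal 1), 116 (3), 97.4 (4), 55.4 (5) and 114 CPM (6), and male cKO ran from 38.7 (animal 13) over a median of 72.7 to 147 CPM (animal 8). Animal 8 stood above all WT libraries, and 5 of 6 cKO libraries lay below the WT median. The log2 fold change was -0.23 ± 0.29 SE in males (adjusted p = 0.925) and -0.31 ± 0.16 in the average (adjusted p = 0.304, edgeR). Without male cKO animal 8, the average was -0.43 with an adjusted p of 0.0395. That library also had the highest summed inhibitory neuron markers of its group (8 genes, 1935 CPM against a group median of 974) and the highest endothelial and mural markers (7 genes, 494 CPM against 322). The library was not the highest of its group by the mean log2 CPM of the 8 inhibitory markers (5.986, where the group reached 6.005). It had the highest hypothalamus sum of all 22 libraries, given above, and the lowest excitatory neuron sum of its group (10 genes, 3956 CPM against a median of 5265). The part of these markers in its Homer2 level was not tested.

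Homer1 varied most between the libraries of female cKO. The female WT libraries read 123 (animal 16), 137 (18), 159 (19), 224 (25) and 140 CPM (26). The female cKO libraries read 370 (animal 20), 136 (21), 164 (22), 106 (23), 297 (24) and 137 CPM (27), so 2 of 6 stood above all WT libraries and 1 below them. The male WT libraries read 90.5 (animal 1), 175 (3), 178 (4), 151 (5) and 146 CPM (6), and male cKO stayed between 120 and 159 CPM. The coefficient of variation was 52.6% in female cKO and 9.44% in male cKO. The log2 fold change of Homer1 was -0.08 ± 0.15 SE in males (adjusted p = 0.961) and 0.35 ± 0.30 in females (95% interval -0.28 to 0.99, adjusted p = 0.612, edgeR), and without female cKO animal 20 the female value was 0.09.

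The libraries with high Homer1 also had a high summed level of genes that neuronal activity induces, though not of each such gene. The summed level of 20 such genes was 2525 CPM in female cKO animal 24, 2432 CPM in female WT animal 25 and 1777 CPM in female cKO animal 20. The 4 other female cKO libraries lay between 747 and 902 CPM. In female cKO animal 20, Bdnf, a neurotrophin, was at 86.6 CPM against a group median of 28.0, and Nptx2, a secreted synaptic pentraxin, at 228 CPM against 65.4. In the same group Fos, Egr1 and Npas4, early transcription factor genes, peaked in animal 24, at 164, 427 and 135 CPM. Animal 20 was above the group median for Fos (53.8 against 32.3 CPM), Egr1 (310.5 against 170.5) and Junb (137 against 85.7). It was below the median for Arc (80.1 against 87.7 CPM) and Npas4 (10.9 against 21.1), and at the median for Nr4a1 (49.48 against 49.45). Female WT animals 18 and 19 had activity sums of 1757 and 1640 CPM with Homer1 at 137 and 159 CPM, so a high sum did not always come with high Homer1. What part these genes have in the Homer1 level was not tested.

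**Figure D3:**
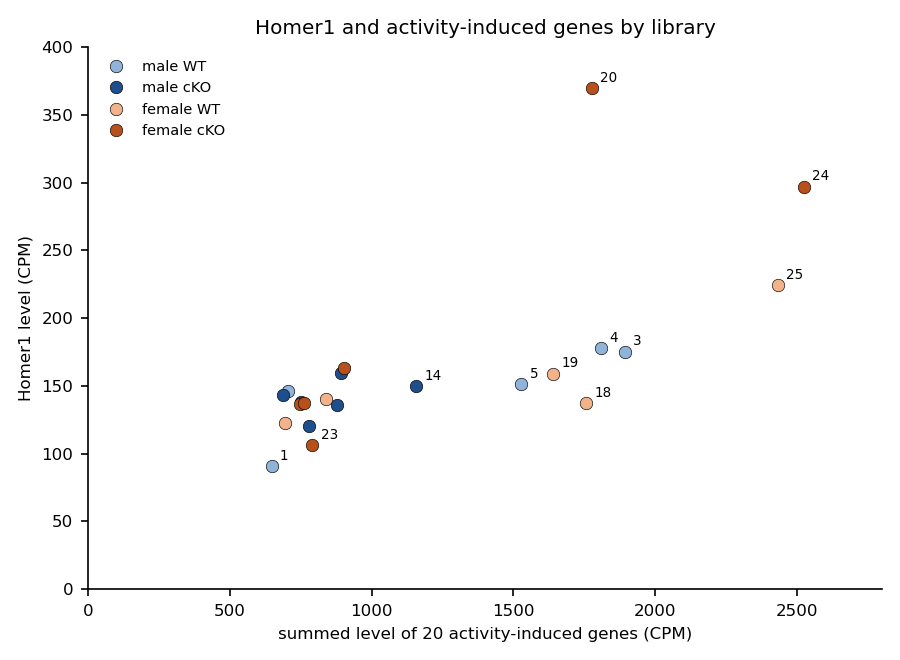
Homer1 level (CPM) against the summed level of 20 activity-induced genes (CPM) for 22 libraries, coloured by group, with animal numbers beside the libraries that stand apart. Female cKO animals 20 and 24 and female WT animal 25 lie highest on the Homer1 axis, at 370, 297 and 224 CPM.

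After the mean of each group was taken away, the genes most like Homer1 across the 22 libraries, among 10412 genes with a mean of at least 10 CPM, were Ptgs2 (Pearson r = 0.930, Spearman rho = 0.839), Ankrd33b (r = 0.906, rho = 0.872) and Nr4a3 (r = 0.895, rho = 0.920). Ptgs2, the inducible prostaglandin synthase, and Nr4a3, an orphan nuclear receptor, belong to the activity list. For Dlg4 the nearest were Adgrl1 (r = 0.936, rho = 0.932), Camta2 (r = 0.925, rho = 0.912) and Wdr13 (r = 0.921, rho = 0.902). For Shank3 they were Robo1 (r = 0.875, rho = 0.816), Tesk1 (r = 0.867, rho = 0.752) and Atp2b3 (r = 0.867, rho = 0.766). These values describe likeness between libraries that share tissue composition and depth; they were picked as the highest and carry no test.

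Homer3, the least abundant member, averaged 8.14 ± 1.82 CPM in male WT, 9.45 ± 2.34 in male cKO, 8.71 ± 1.52 in female WT and 8.29 ± 0.683 in female cKO (SD). Its log2 fold change was 0.20 ± 0.20 SE in males and -0.08 ± 0.12 in females (adjusted p = 0.879 and 0.804, edgeR), and the groups overlapped in both sexes.

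**Figure D4:**
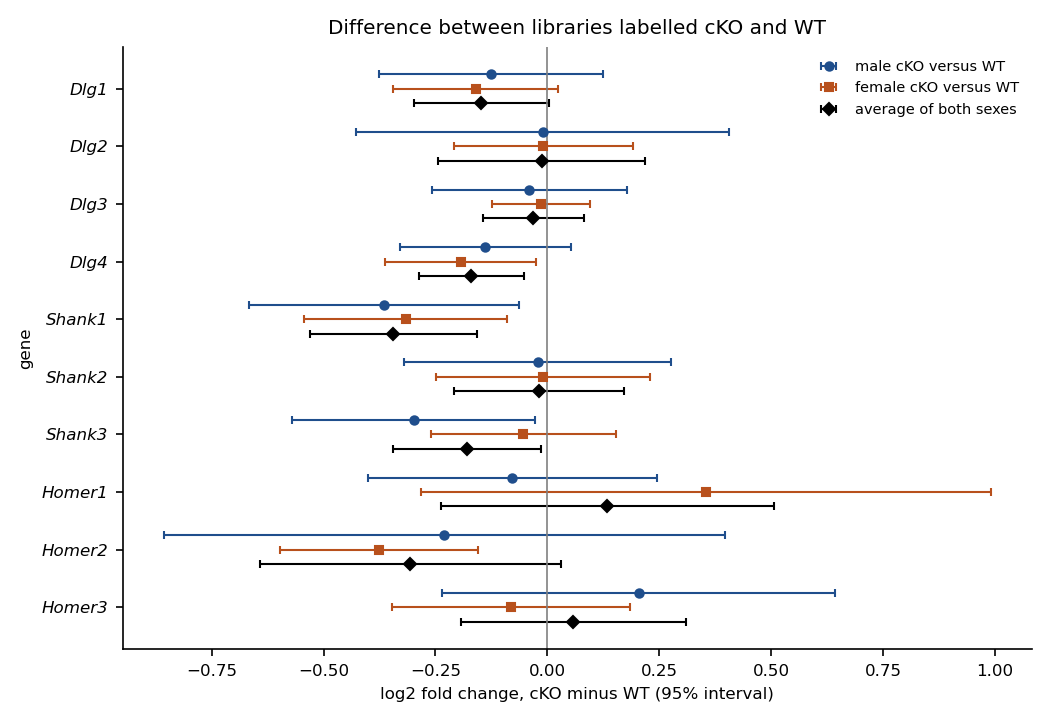
Log2 fold change of each scaffold gene, cKO minus WT as labelled, with its 95% interval, in males, females and the average of both sexes. The Shank1 intervals lie below 0 in all 3 comparisons (-0.67 to -0.06 in males, -0.54 to -0.09 in females, -0.53 to -0.16 in the average). Those of Dlg1, Dlg2, Dlg3, Shank2, Homer1 and Homer3 include 0 in all 3.

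Male and female effects were compared directly in a fit of all 22 libraries. No member, and 0 of 16855 genes (0%), passed an adjusted p of 0.05 for the difference with edgeR or DESeq2, and 176 genes (1.04%), none of them a member, had an unadjusted p under 0.05 with edgeR. The estimates of the difference, female minus male, ran from -0.29 for Homer3 to 0.43 for Homer1, and their 95% intervals reached as far as 1.18 for Homer1. For Shank1 the difference was 0.05 (95% interval -0.33 to 0.42), so the data do not resolve whether its effect is equal in the sexes.

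Some libraries were low or high for many scaffold genes at once. In male cKO, animal 13 was the lowest library for 8 of 10 members, and it had the highest summed oligodendrocyte markers of its group (9 genes, 12340 CPM, where the group ran upward from 2439). In male WT, animal 3 was the highest library for 7 of 10 members and had the lowest oligodendrocyte sum (1796 CPM), while animal 5, the lowest library for 5 members, had the highest (10030 CPM). In females WT animal 25 was the highest library for 5 members with the lowest oligodendrocyte sum (3224 CPM), and WT animal 26, the lowest library for 5 members, stood at the group median of 7053 CPM. In female cKO the highest oligodendrocyte sum was that of animal 21 (14310 CPM), which was the lowest library for 0 members. Animals 23 and 27, the lowest libraries for 4 members each, stood at 10530 and 9278 CPM, and animal 24, the highest library for 4 members, had the lowest sum (4463 CPM). Between groups, the oligodendrocyte sum ran from 1796 to 10030 CPM in male WT and from 2439 to 12340 in male cKO, and from 3224 to 10240 in female WT and 4463 to 14310 in female cKO, with no marker at 0 throughout a group. The group medians were 7053 CPM in female WT and 9905 in female cKO, and 4818 and 4940 CPM in male WT and male cKO. The estimates of the 9 oligodendrocyte markers were higher in cKO for 9 of 9 in females (median log2 fold change 0.47) and 8 of 9 in males (0.13), and edgeR called 0 of them. Its part in the differences of the scaffold genes was not tested.

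The partner proteins show where the scaffold genes stand among the genes around them. Of 25 membrane and store partners, 0 fell in males with edgeR (3 with DESeq2), 7 fell and 1 rose in females, and 9 fell and 1 rose in the average of both sexes. Of all genes tested with edgeR, 0.503% fell in males. In females 2.75% fell and 0.62% rose, and in the average 4.67% fell and 2.46% rose. Gria2 and Gria3, which encode AMPA receptor subunits, fell by 0.34 ± 0.04 and 0.70 ± 0.10 SE on the log2 scale in the average (adjusted p = 2.086e-05 and 0.000147, edgeR). The metabotropic receptor gene Grm5 fell by 0.50 ± 0.10, the inositol trisphosphate receptor gene Itpr1 by 0.84 ± 0.17 and the adhesion gene Lrrtm4 by 0.67 ± 0.09 (adjusted p = 0.00395, 0.00242 and 2.293e-05). Grin2b, an NMDA receptor subunit, fell by 0.43, the neuroligin genes Nlgn2 and Nlgn3 by 0.12 and 0.24, and Adam22, a receptor of the secreted synaptic protein LGI1, by 0.16. Their adjusted p ran from 0.0252 for Adam22 to 0.0406 for Nlgn2 (edgeR). Lgi1 itself rose by 0.36 ± 0.10 (adjusted p = 0.0247). Of 25 alternatives for the average (22 that leave out 1 library and 3 other settings), Grin2b kept its call in 14 and Nlgn3 in 13. Nlgn2 kept it in 7, Adam22 in 21 and Lgi1 in 24.

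In females Grin2b, Gria2, Gria3, Gria4, Grm5, Itpr1 and Lrrtm4 fell, with log2 fold changes from -0.35 for Gria2 to -0.92 for Itpr1, and Lgi1 rose by 0.31. Of these female calls, Grin2b kept its call in 6 of 15 alternatives (11 that leave out 1 library and 4 other settings), Lgi1 in 5, Grm5 in 11 and Gria4 in 14, while Gria2, Gria3, Itpr1 and Lrrtm4 kept theirs in 15 of 15. The median of the 25 partners was -0.18 on the log2 scale in the average of both sexes, against 0.01 over all genes tested and -0.09 for the 10 scaffold genes. In the same average the 9 oligodendrocyte markers were higher by estimate in 9 of 9 (median 0.31), and the 10 excitatory neuron markers were lower by estimate in 8 of 10 (median -0.16). In females the excitatory neuron markers were lower by estimate in 9 of 10 (median -0.25). The 8 inhibitory neuron markers were lower in 5 and higher in 3 (median -0.31), with 2 called lower by edgeR. The sum of these 8 had a median of 941 CPM in female WT and 1165 CPM in female cKO. The part of these markers in the partners' values was not tested. With 1 fit of all 4 groups in place of the fit of females alone, 4 of the 25 fell in females and 3 in males.

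Of 16 SAPAP and GTPase regulator genes, Cnksr2, a scaffold of Ras signalling, had log2 fold changes of -1.01 ± 0.19 SE in females and -0.98 ± 0.17 in the average (adjusted p = 0.0108 and 0.000880, edgeR), and no other member was called in any comparison. The share of all tested genes that fell was 2.75% in females and 4.67% in the average. Of 24 other excitatory scaffolds and adaptors, Magi3 fell by 0.69 ± 0.10 in females (adjusted p = 0.00225) and by 0.66 ± 0.12 in the average. Its relative Magi2 fell by 0.24 and Abi2, a subunit of the WAVE actin regulator, by 0.19 in the average (adjusted p = 0.0411 and 0.0485, edgeR). Both lost the call with other size factors or without a filter on low counts. With 1 library left out, Magi2 kept the call in 6 of 22 fits and Abi2 in 5 of 22. Of 11 genes of the inhibitory postsynapse, Nlgn2, also a member of the membrane list, fell in the average. Nlgn2 lost the call with other size factors or without a filter on low counts, and kept it in 6 of 22 fits with 1 library left out. In males edgeR called 0 genes of these 3 lists, and DESeq2 called 1 lower gene of the SAPAP list.

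Of 20 activity-induced genes, Ptgs2 fell in males (log2 fold change -1.69 ± 0.31 SE, adjusted p = 0.0353), Sik1, a salt-inducible kinase, in females (-0.69, adjusted p = 0.0332), and Arc, Ptgs2 and Sik1 in the average (-1.12, -1.28 and -0.79). The male call of Ptgs2 held in 5 of 15 alternatives (highest adjusted p = 0.144) and the female call of Sik1 in 6 of 15 (highest adjusted p = 0.134). In the average, Ptgs2 kept its call in 11 of 25 alternatives, Arc in 20 and Sik1 in 25. None rose. Without female cKO animal 24, whose activity sum was the highest of all libraries, 8 of the 20 fell in the average of both sexes, and the count was 1 without male WT animal 3 or 4 or without female WT animal 18, 19 or 25. Over all genes, the number called in the average also moved, from 949 to 1623 with 1 library left out, against 1201 with none left out. The median of the 20 activity-induced genes in the average was -0.50, while Homer1, itself inducible through its short form, stood at 0.13 ± 0.18 SE.

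Across these lists (16, 24, 25, 11 and 20 genes), 17 genes were called in the average of both sexes, with Nlgn2 counted once. Over all genes tested, 7.13% were called in that average, 4.67% lower and 2.46% higher. Of the 17 genes, 8 kept the call under each of 25 alternatives, among them leaving out each library in turn. These were Cnksr2, Magi3, Gria2, Gria3, Grm5, Itpr1, Lrrtm4 and Sik1. No gene of these lists was called for the difference between sexes.

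**Figure D5:**
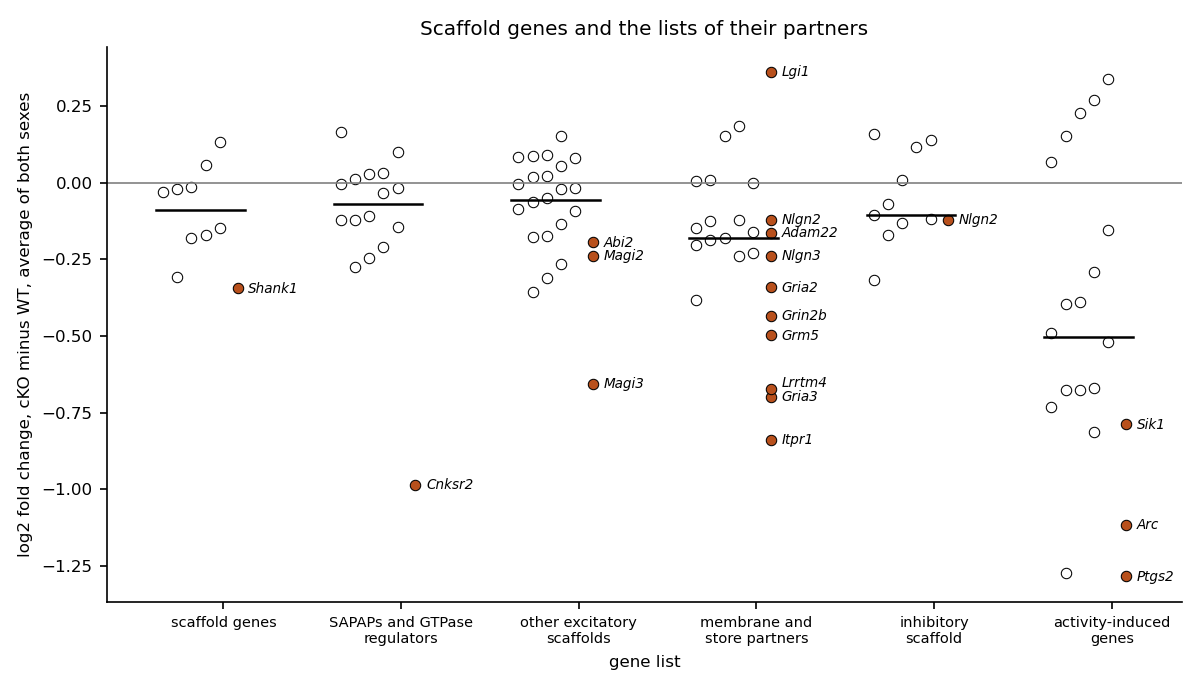
Log2 fold change, cKO minus WT as labelled, in the average of both sexes for the 10 scaffold genes and 5 lists of related genes; filled points passed an adjusted p of 0.05, open points did not, and the bars are list medians. Shank1 (-0.34) is the filled point among the scaffold genes, and Itpr1 (-0.84) is the lowest filled point among the membrane and store partners.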

How the data were processed

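The members and gene lists were chosen with earlier results of these data known. Whole-number counts of reads per gene were deposited by the authors in a table per sex. Per the submitters' processing notes, cutadapt, STAR, HTSeq and DESeq2 were used with build GRCm39; the sources used here give no versions, annotation or strand setting, so reads of overlapping or antisense genes cannot be told apart. The deposited tables also hold the authors' log2 fold changes and p-values, quoted as such, and 22 normalized columns, not used. A column numbered 20 was used as a female cKO library by its name, without tying it to a title. No pair of 50 replicate pairs agreed within sampling noise (lowest chi-square per degree of freedom 5.81). The labels do not give a batch. Genes passing filterByExpr (minimum count 10, total 15) were scaled by TMM and tested in R 4.3.3 by quasi-likelihood F tests of edgeR 4.0.16 (with limma 3.58.1), each sex alone, and both sexes in a fit of 22 libraries for the average and difference. Adjustment was Benjamini-Hochberg over all genes, threshold 0.05. Likeness used log2 CPM with a pseudocount of 0.5. Named genes are the 10 members, Smc3, up to 4 smallest-p genes per list and comparison, the other called list genes (added after their values were seen), and the 3 genes most like Dlg4, Shank3 and Homer1. Some listed genes are not reported here. Alternatives were RLE factors, no filter, DESeq2 1.42.0, a joint fit and leaving out each library. The pipeline was tested on simulated data in which the changed genes had larger changes than any member's estimate here. That test therefore does not bear on effects of the members' size. Depth limits the precision of low genes such as Homer3. Each library comes from its own animal.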

Additional observations from a re-analysis of the deposited data

Results flagged for a closer look

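In each of 40 groups of libraries (10 genes in 4 groups), the highest and the lowest library were set against the rest with Dixon's criterion, which chance meets in about 1 in 20 groups. It was met in 2. Dlg3 was at 169 CPM in male cKO animal 13, with a gap to the next library of 0.707 of the group's range. Shank2 was at 183 CPM in female cKO animal 24, with a gap of 0.634 of the range.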

How the results depend on the processing

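Genes called in males numbered 94, against 327 with DESeq2 and 276 in the joint fit of 4 groups, and 18 to 201 when a library was left out (201 without cKO animal 8, fewer than 94 without each library other than WT animal 1 or cKO animal 8). In females 543 were called, against 894 with DESeq2, 294 in the joint fit and 324 to 681 with a library left out. Members called in females were 0, 1 with DESeq2 (Homer2), and 0 to 1 with a library left out (Shank1, without WT animal 26). In the average 1 was called, and 0 to 2 with a library left out. Shank1 lost its call without male WT animal 3, Homer2 gained one without male cKO animal 8, and Dlg4 gained one without male cKO animal 14 or female WT animal 26. Estimates near 0 changed sign. Dlg2 was 0.00 in the average without a filter and -0.0019 for the difference with DESeq2. With a library left out, male values ran from -0.13 to 0.11 for Dlg2, -0.0839 to 0.027 for Dlg3 and -0.10 to 0.067 for Shank2. Female values ran from -0.0809 to 0.0255 for Dlg2, -0.0415 to 0.0053 for Dlg3 and -0.0916 to 0.0661 for Shank2. In the average they ran from -0.0707 to 0.0511 for Dlg2, -0.0517 to 0.0014 for Dlg3, -0.0574 to 0.0311 for Shank2 and -0.0007 to 0.11 for Homer3. Differences between sexes ran from -0.10 to 0.0502 for Dlg1, -0.11 to 0.11 for Dlg2, -0.0404 to 0.0625 for Dlg3, -0.0461 to 0.14 for Shank1, -0.0717 to 0.10 for Shank2 and -0.29 to 0.11 for Homer2. The cause of these changes was not tested. RLE factors changed no member's direction or call, and a plain library total moved none of 40 group levels by more than 1 SD. Alternatives for the partner lists were added after seeing the data. No paired analysis was possible because each animal has its own number and no number occurs in 2 groups.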
